A study of Mus musculus with 4 samples.

Results

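The 40 genes described here carry out or control glycolysis and the response to low oxygen. They are 22 genes of glucose uptake and glycolysis, 3 subunits of the hypoxia-inducible factor HIF, 4 oxygen sensors and 11 other HIF targets. Vegfa, a further HIF target, is left out. The genes were chosen by name, and their probes were found through the RefSeq accession that each probe carries. All 40 were found, among 22899 named genes with a usable probe on every array.

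RNA came from 4 mouse bone marrow cultures, each measured on 1 one-colour array. The groups were LysM-St18flox osteoclasts, LysM-St18flox macrophages, wild-type osteoclasts and wild-type macrophages. Macrophages had spent 4 days in M-CSF, the macrophage growth factor, at 25 ng/ml. Osteoclasts, which resorb bone, were such macrophages after 3 more days with 25 ng/ml M-CSF plus 50 ng/ml RANKL, the osteoclast-inducing cytokine. The effects of RANKL and of time in culture cannot be told apart. By convention the name LysM-St18flox stands for loxP sites around St18, a zinc finger transcription factor gene, and Cre recombinase made under the lysozyme M gene, which acts in myeloid cells in general and not in osteoclast precursors alone. Not given in the sources used here are any Cre or loxP alleles of the wild-type animals and the number, age and sex of all animals. All cells grew in RPMI medium with 10% serum, and no oxygen level is given.

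Glycolysis turns glucose into pyruvate in the cytosol, and cells short of oxygen reduce pyruvate to lactate. HIF is a transcription factor of an alpha subunit, HIF-1alpha or HIF-2alpha, and the constant partner ARNT. In the presence of oxygen, prolyl hydroxylases mark the alpha subunit for destruction, so that HIF activity is set mostly through protein stability and is not read from the mRNA of its subunits. HIF raises most glycolytic genes and also genes of other functions, and it raises Egln3, which encodes one of the hydroxylases that restrain it. Osteoclasts are rich in mitochondria and also use glycolysis during resorption.

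HIF binds DNA at the cores ACGTG and GCGTG. These were searched on both strands in the RefSeq promoters of assembly GRCm38.p6, windows of 300 bases that run from 250 upstream to 50 downstream of the transcription start. Of 55 promoters of 37 members, 44 (80%) held at least 1 core, against 43.8% of all 32851 promoters of the table. ACGTG was in 54.5% of member promoters and 19.6% of all promoters, and GCGTG in 56.4% and 32.4%. The share with either core was 79.4% in the glycolysis class (27 of 34 promoters), 78.6% in the other HIF targets (11 of 14) and 85.7% in the subunits and sensors (6 of 7). Promoters of Gpi1, Hif1an and Tpi1 held neither core. Both cores hold the letter pair CG, and the background of all promoters was not matched for the content of this pair. Genes with several promoters were counted once per promoter. The match of letters is a description and not evidence of binding.

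The upstream 250 bases of 6 promoters are shown, 5′ to 3′ on the strand of the gene, with cores on either strand in capitals. P4ha2, Pfkfb4 and Hk3 are shown because they were at least 2-fold lower in osteoclasts of both genotypes, and Egln3, Ankrd37 and Adm because they were at least 2-fold higher in LysM-St18flox cells of both types. The second set was chosen after its values were seen. The windows are chr12:54203875-54204124 (Egln3, minus strand), chr8:45999851-46000100 (Ankrd37, minus strand), chr7:110627407-110627656 (Adm, plus strand), chr11:54100674-54100923 (P4ha2, plus strand), chr9:108991652-108991901 (Pfkfb4, plus strand) and chr13:55021386-55021635 (Hk3, minus strand), each from RefSeq, GRCm38.p6.
Egln3: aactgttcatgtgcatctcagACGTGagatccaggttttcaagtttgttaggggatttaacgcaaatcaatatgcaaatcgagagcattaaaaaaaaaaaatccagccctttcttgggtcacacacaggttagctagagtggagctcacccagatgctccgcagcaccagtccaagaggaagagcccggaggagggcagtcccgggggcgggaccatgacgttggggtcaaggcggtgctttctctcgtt
Ankrd37: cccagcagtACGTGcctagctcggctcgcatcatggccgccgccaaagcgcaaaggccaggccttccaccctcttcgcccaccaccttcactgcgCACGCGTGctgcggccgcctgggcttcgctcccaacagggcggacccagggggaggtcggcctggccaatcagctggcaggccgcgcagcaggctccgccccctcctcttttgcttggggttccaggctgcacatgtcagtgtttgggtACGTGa
Adm: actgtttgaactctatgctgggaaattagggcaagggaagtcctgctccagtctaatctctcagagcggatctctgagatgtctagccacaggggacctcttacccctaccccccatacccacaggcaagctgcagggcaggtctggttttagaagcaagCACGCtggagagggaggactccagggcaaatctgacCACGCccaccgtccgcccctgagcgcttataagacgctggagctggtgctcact
P4ha2: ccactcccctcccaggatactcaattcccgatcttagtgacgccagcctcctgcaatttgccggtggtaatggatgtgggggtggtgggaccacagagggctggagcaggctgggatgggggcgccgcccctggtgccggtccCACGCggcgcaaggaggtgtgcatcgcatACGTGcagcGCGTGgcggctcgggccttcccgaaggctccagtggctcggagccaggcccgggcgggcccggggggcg
Pfkfb4: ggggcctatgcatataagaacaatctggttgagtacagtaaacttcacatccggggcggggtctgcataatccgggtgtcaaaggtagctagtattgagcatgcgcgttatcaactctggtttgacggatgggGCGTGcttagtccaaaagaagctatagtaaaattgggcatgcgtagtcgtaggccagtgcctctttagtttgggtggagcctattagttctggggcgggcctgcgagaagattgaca
Hk3: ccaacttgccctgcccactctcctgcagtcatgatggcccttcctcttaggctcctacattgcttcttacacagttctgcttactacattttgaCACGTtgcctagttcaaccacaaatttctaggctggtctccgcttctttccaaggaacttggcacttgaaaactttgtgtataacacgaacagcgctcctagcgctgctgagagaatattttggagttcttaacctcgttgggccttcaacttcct
Ankrd37 has 4 cores here, 2 of which overlap. P4ha2 has 3, with 1 more just downstream of the start (4 in the whole window). Adm has 2, and Egln3, Pfkfb4 and Hk3 have 1 each. Promoters of both sets thus hold such cores.

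Between 59% and 63.2% of spots were well above background on each array and none was saturated. Of the 40 genes, 39 passed the background limit on all 4 arrays, with Adm the exception. Levels are given as log2 of the signal relative to the 75th percentile of its array, so that 0 is the level of that percentile. A level is compared only between arrays for the same gene. With 1 array per group there was no test, and a gene was counted as different when its 2 arrays were at least 2-fold apart. Spots of the same probe give an SD of 0.045 to 0.055 for a log2 difference, which leaves out the spread between cultures and arrays. St18 had a log2 level of 1.12 in LysM-St18flox osteoclasts and 1.55 in wild-type osteoclasts, and of -1.52 in LysM-St18flox macrophages and 0.29 in wild-type macrophages. A second, dim St18 probe went the other way and passed the background limit on 1 array, that of LysM-St18flox osteoclasts, at -4.60, against a signal of -5.67 in wild-type osteoclasts. Where these probes lie relative to the loxP sites was not given in the sources used here. The probes therefore do not check the deletion.

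The 10 osteoclast markers were all well above background in both osteoclast cultures, and Calcr, the calcitonin receptor gene, was not in either macrophage culture. Their summed level, in multiples of the 75th percentile, was 987 in LysM-St18flox osteoclasts and 11.1 in LysM-St18flox macrophages, and 767 in wild-type osteoclasts and 12.9 in wild-type macrophages. The 8 macrophage markers were above background everywhere and summed to 520 in LysM-St18flox osteoclasts and 784 in LysM-St18flox macrophages, and to 477 in wild-type osteoclasts and 803 in wild-type macrophages. The sums rest mostly on the brightest markers, such as Ctsk and Acp5. Single markers and other lists are given beside the results they move with.

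Among the 40 genes, the genes highest in LysM-St18flox relative to wild-type cells, in both cell types, were Egln3, Ankrd37 and Adm. These 3 were at least 2-fold higher in LysM-St18flox cells of both types, and no member was at least 2-fold lower in both. All 3 are known HIF targets outside the glycolytic pathway. The share of all genes past 2-fold in both cell types is not given here, and the shares below are for each cell type alone. In osteoclasts, 4 of 40 members were at least 2-fold higher in LysM-St18flox and 0 lower, and across all genes 7.75% passed in either direction, 3.81% higher and 3.94% lower. In macrophages, 4 of 40 were higher and 1 lower, and across all genes 6.28% passed, 3.3% higher and 2.98% lower.

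Osteoclast markers moved with genotype too. In LysM-St18flox against wild-type osteoclasts, 8 of the 10 were at least 2-fold higher and 0 lower, between 1.02 for Nfatc1, the master transcription factor of osteoclasts, and 2.30 for Oscar, an osteoclast receptor. Ctsk and Acp5 were the others, at 0.29 and -0.29. In macrophages 0 of 9 measured were higher and 2 lower, the fusion genes Dcstamp (-1.81) and Ocstamp (-1.01). Of the 8 macrophage markers, 0 passed between genotypes in osteoclasts, and in macrophages Mrc1 (1.41) and Mertk (1.66) were higher in LysM-St18flox. The part of these markers in the genotype results that follow was not tested.

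Egln3, the prolyl hydroxylase PHD3, had a log2 level of 0.72 in LysM-St18flox osteoclasts and -1.35 in wild-type osteoclasts, a 4.2-fold higher level. In macrophages it was at -0.21 in LysM-St18flox and -1.60 in wild-type cells, 2.61-fold higher. Both LysM-St18flox arrays thus stood above both wild-type arrays. Of all genes measured, 0.438% had a difference at least as high in osteoclasts and 1.38% in macrophages.

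Ankrd37, a small ankyrin repeat protein gene induced by hypoxia, was at 1.98 in LysM-St18flox osteoclasts and 0.41 in wild-type osteoclasts, 2.97-fold higher. In macrophages it was at 2.32 in LysM-St18flox and 1.28 in wild-type cells, 2.06-fold higher. As for Egln3, both LysM-St18flox levels lay above both wild-type levels. Adm encodes adrenomedullin, a secreted peptide that widens vessels, and was dim, at -2.61 in LysM-St18flox osteoclasts and -4.16 in LysM-St18flox macrophages. It was not well above background in the wild type, with signals of -5.66 in osteoclasts and -5.83 in macrophages. Against the lowest signal that counts as above background, Adm was at least 4.86-fold higher in LysM-St18flox osteoclasts and at least 2.24-fold higher in LysM-St18flox macrophages. These bounds depend on the background correction: with normexp the log2 difference in osteoclasts was 1.06, against 2.28 here, and macrophages gave no value. Each of these 3 genes was measured by 1 probe.

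Bnip3, a mitochondrial protein that promotes mitophagy, was at 4.63 in LysM-St18flox osteoclasts and 3.63 in wild-type osteoclasts, a level that was 2-fold higher, just at the limit, with a difference of 0.96 in the authors' deposited table. In macrophages it was at 3.99 in LysM-St18flox and 3.88 in wild-type cells. Its LysM-St18flox osteoclast level stood above the other arrays. Ddit4, which encodes the mTORC1 inhibitor REDD1, was at 1.60 in LysM-St18flox macrophages and 0.59 in wild-type macrophages, 2.01-fold higher. In osteoclasts it was at 1.03 in LysM-St18flox and 0.53 in wild-type cells, so the larger gap was in macrophages. With another background correction the difference in macrophages was 0.89, below 2-fold.

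The remaining other HIF targets were within 2-fold between genotypes. Ndrg1, a stress-induced gene, was 0.48 higher on the log2 scale in LysM-St18flox osteoclasts and 0.76 higher in LysM-St18flox macrophages than in wild-type cells of the same type. The histone demethylase gene Kdm3a differed by 0.45 in osteoclasts and 0.50 in macrophages, and Mxi1, a MYC antagonist, by 0.37 in each. P4ha1, a subunit of collagen prolyl 4-hydroxylase, differed by 0.62 and 0.50 with its brighter probe, but by -0.20 and -0.14 with a dimmer one. The second subunit gene, P4ha2, went the other way, at -0.38 in osteoclasts and -0.42 in macrophages. Higd1a, a mitochondrial hypoxia-induced gene, was at 0.00 in osteoclasts and -0.53 in macrophages, and Ero1l, an oxidase of the endoplasmic reticulum, at 0.29 and -0.35. In all, 8 of the 11 other HIF targets were above 0 in both cell types, P4ha1 among them by its brighter probe. Over all genes, 7238 of 14611 were above 0 in osteoclasts and 7315 of 15158 in macrophages. The share of all genes above 0 in both is not given here.

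**Figure D1:**
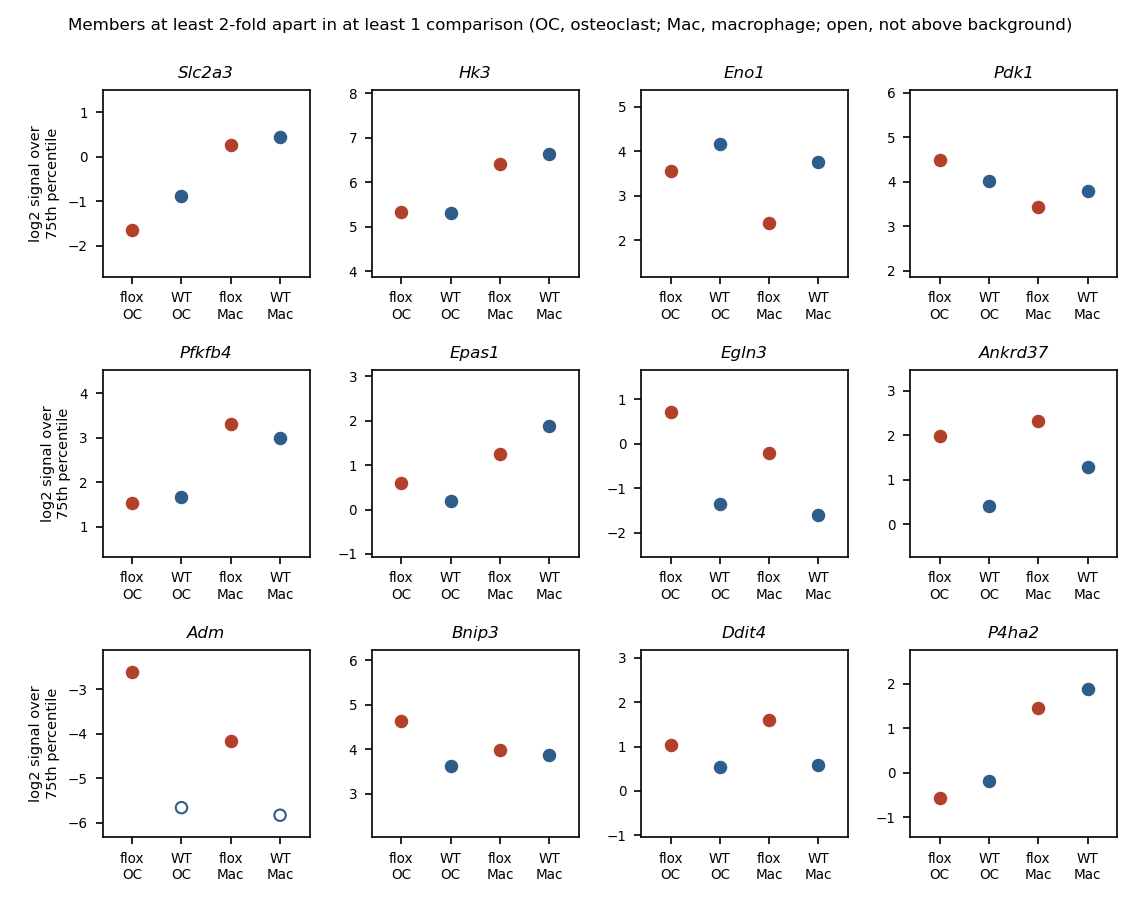
Log2 level over the 75th percentile of the array for the 12 members at least 2-fold apart in at least 1 comparison, with 1 point per array and open circles for signals not well above background. Egln3, Ankrd37 and Adm have both LysM-St18flox points (red) above both wild-type points (blue), while Slc2a3, Hk3, Pfkfb4 and P4ha2 have both osteoclast points (OC) below both macrophage points (Mac).

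Among the 22 glycolytic genes, 0 were at least 2-fold higher in LysM-St18flox cells of either type, which with 3.81% (osteoclasts) and 3.3% (macrophages) of all genes higher says little about the class. Hk1 passed in osteoclasts, at 1.15, when arrays were scaled on their median. In macrophages 16 of 22 lay below 0, with a median difference of -0.21 that was -0.03 after quantile normalization and -0.00 in the authors' deposited table. In osteoclasts 16 of 22 lay above 0, with a median of 0.16. Over all genes, 7843 of 15158 lay below 0 in macrophages and 7238 of 14611 above 0 in osteoclasts. The 11 other HIF targets had a median of 0.48 in osteoclasts and 0.50 in macrophages. The glycolysis median minus that of the other targets was -0.32 in osteoclasts and -0.71 in macrophages. Under the alternatives tried this gap stayed below 0. At its narrowest it was -0.11 in osteoclasts, in the authors' deposited table, and -0.42 in macrophages, with normexp background correction. The median over all genes was 0.00 in osteoclasts and -0.02 in macrophages.

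With the main scaling and the probe that stands for each gene, the later steps of glycolysis showed the lowest values in macrophages. Gapdh, Pgk1, Pgam1, Eno1 and Pkm, which carry triose phosphate to pyruvate and yield its ATP, were all below 0, between -1.34 and -0.30. The value of -1.34 is that of Eno1, which was -0.01 in the authors' deposited table. Pgk1, phosphoglycerate kinase, was at 7.54 in LysM-St18flox macrophages and 8.33 in wild-type macrophages, and at 8.08 in LysM-St18flox osteoclasts and 8.42 in wild-type osteoclasts. Ldha, the lactate dehydrogenase A gene, was at 7.26 in LysM-St18flox macrophages and 7.93 in wild-type macrophages. Both enzymes were within 2-fold. The first steps were closer to 0 in macrophages, from -0.56 for Aldoa, the muscle-type aldolase, to 0.26 for Pfkm, a phosphofructokinase. In osteoclasts 6 of these 7 first-step genes were above 0, up to 0.58 for Pfkp, another phosphofructokinase. Of the hexokinases, which trap glucose in the cell, Hk1 was at 5.57 in LysM-St18flox osteoclasts and 4.67 in wild-type osteoclasts, the highest of the class at 0.90, and at 4.91 in LysM-St18flox macrophages and 4.94 in wild-type macrophages.

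Eno1, the enolase gene, was the 1 glycolytic gene past 2-fold between genotypes, and its value depended on the probe. Its usable probe gave 2.40 in LysM-St18flox macrophages and 3.75 in wild-type macrophages, 2.54-fold lower. In osteoclasts this probe gave 3.56 in LysM-St18flox and 4.16 in wild-type cells. A brighter Eno1 probe had an uneven spot on the wild-type osteoclast array and was left out for that reason. It gave 7.15 in LysM-St18flox macrophages and 7.48 in wild-type macrophages, a difference of -0.33, and the difference was -0.01 in the authors' deposited table. Eno1b, a near copy whose transcripts the probes may not separate, was at 7.17 in LysM-St18flox macrophages and 7.55 in wild-type macrophages.

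Similar gaps between probes were seen in other enzymes. In LysM-St18flox against wild-type macrophages, Ldha gave -0.67 with its brightest probe and -1.26 with a second. Pkm, the pyruvate kinase gene, gave -0.44 and -1.34. Tpi1, triose phosphate isomerase, gave -0.10 with the brightest probe and -0.62 and -0.86 with others. The 6 Gapdh probes lay between -0.51 and -0.12. Aldoc, a brain-type aldolase, went the other way, at -0.22 and 0.35 with probes of 10 spots each. Across the members, 23 further probes of 15 genes passed the background limit on every array, and 19 of them had the same direction as the brightest probe of their gene in macrophages and 15 in osteoclasts. Many glycolytic genes have processed pseudogenes, and probe positions within transcripts were not given in the sources used here.

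**Figure D2:**
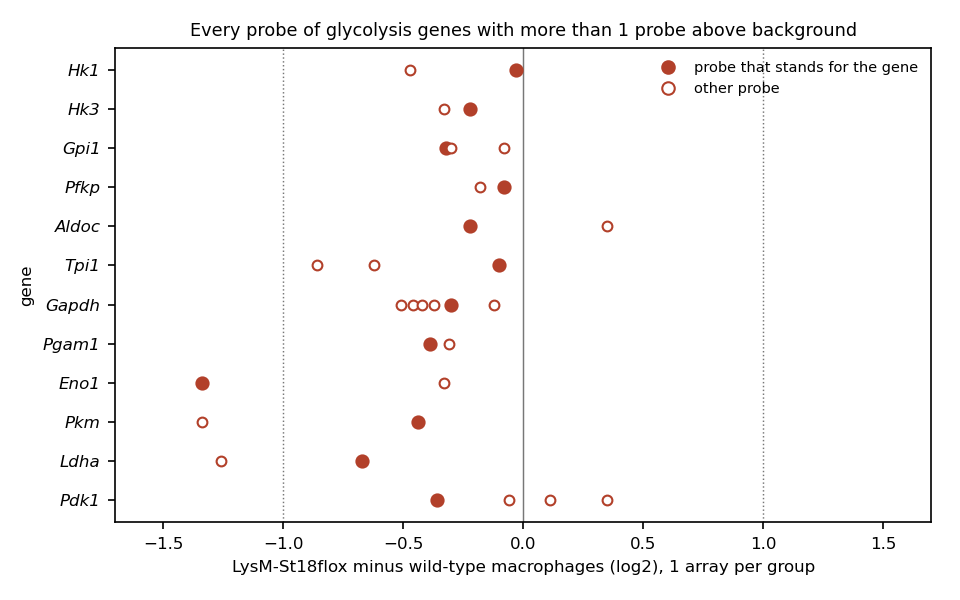
LysM-St18flox minus wild-type macrophage difference (log2) for each probe well above background on all 4 arrays, for glycolysis genes with more than 1 such probe; filled circles are the probes that stand for the gene. Second probes of Ldha (-1.26) and Pkm (-1.34) lie beyond the dotted 2-fold line while the probes that stand for these genes (-0.67 and -0.44) do not.

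The HIF subunits differed by less than 2-fold between genotypes. Hif1a, which encodes HIF-1alpha, was at 2.35 in LysM-St18flox osteoclasts and 2.76 in wild-type osteoclasts, and at 2.58 in LysM-St18flox macrophages and 2.93 in wild-type macrophages. It was thus slightly lower in LysM-St18flox cells of both types, at -0.40 and -0.35. Arnt was at 1.28 in LysM-St18flox osteoclasts and 0.98 in wild-type osteoclasts, and at 1.90 in LysM-St18flox macrophages and 1.34 in wild-type macrophages, higher in both by 0.30 and 0.56. Epas1, which encodes HIF-2alpha, was at 0.60 in LysM-St18flox osteoclasts and 0.19 in wild-type osteoclasts, but at 1.25 in LysM-St18flox macrophages and 1.88 in wild-type macrophages. Epas1 therefore went opposite ways in the cell types.

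The sensors other than Egln3 were also close between genotypes. Egln1, the main HIF prolyl hydroxylase PHD2, was at 3.22 in LysM-St18flox osteoclasts and 3.39 in wild-type osteoclasts, and at 3.26 in LysM-St18flox macrophages and 3.51 in wild-type macrophages. Egln2, or PHD1, was at 4.29 in LysM-St18flox osteoclasts and 4.56 in wild-type osteoclasts, and at 4.41 in LysM-St18flox macrophages and 4.63 in wild-type macrophages. Hif1an, the asparagine hydroxylase FIH, was at -1.60 in LysM-St18flox osteoclasts and -1.66 in wild-type osteoclasts, and at -1.23 in LysM-St18flox macrophages and -1.38 in wild-type macrophages. None of these 3 sensors differed by more than 0.27 on the log2 scale. Of 12 further genes of HIF regulation, 10 were measured, among them Vhl, which marks hydroxylated HIF for destruction. Of these 10, 0 passed 2-fold in any of the 4 comparisons. Between genotypes, 7.75% of all genes passed in osteoclasts and 6.28% in macrophages. Between cell types, 23.2% of all genes passed for LysM-St18flox and 13% for wild-type cells. A count of 0 among 10 genes therefore says little about this list.

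The 75th percentile of the unscaled signal was 1061.9 in LysM-St18flox osteoclasts and 769.9 in wild-type osteoclasts. It was 1159.3 in LysM-St18flox macrophages and 635.5 in wild-type macrophages. Brightness thus moved with genotype. Its part in the genotype differences was not tested. The 8 neutrophil markers with a probe, all above background on every array, summed to 9.82 in LysM-St18flox osteoclasts and 14.2 in wild-type osteoclasts, and to 40.4 in LysM-St18flox macrophages and 33.1 in wild-type macrophages. Mmp8, the brightest of them in macrophages, was at 4.66 in LysM-St18flox and 4.33 in wild-type macrophages. Markers of B cells summed to at most 1.48, of T and NK cells to at most 3.59 and of endothelium to at most 1.75, and those of stroma and erythroid cells to at most 0.194 and 0.567. Cd79a, Cd8a, Ncr1, Tek, Pdgfrb, Cxcl12, Alpl, Hbb-b1, Klf1 and Alas2 were among the markers not well above background on any array. Of the megakaryocyte markers, Pf4, which macrophages also express, was above background on all arrays and Itga2b, Gp9 and Gp1ba on none. In bulk RNA, fewer cells of a type and less RNA per cell cannot be told apart.

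**Figure D3:**
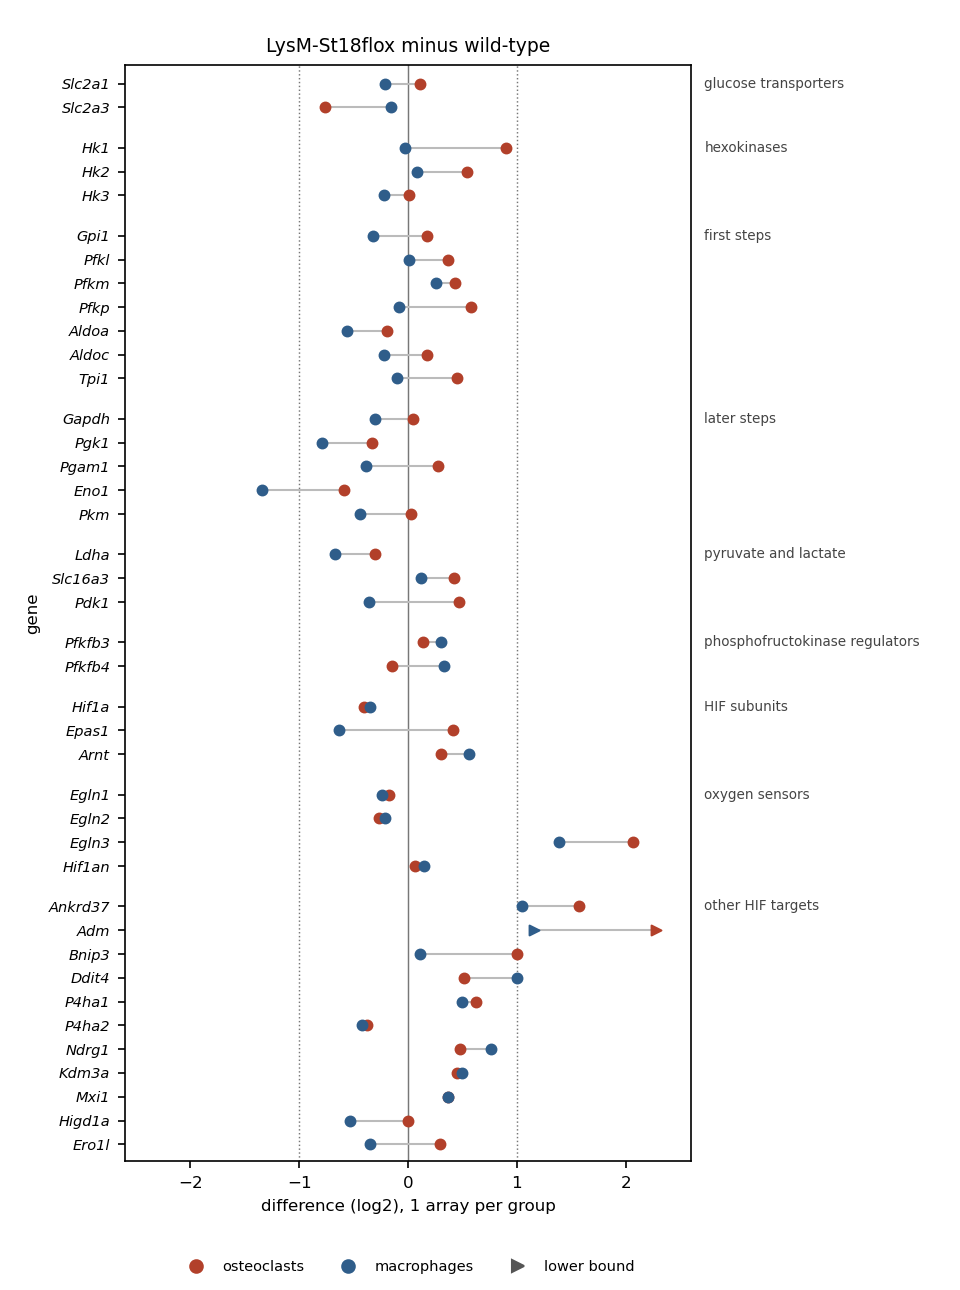
LysM-St18flox minus wild-type difference (log2) for each of the 40 members by role, in osteoclasts (red) and macrophages (blue), with dotted lines at 2-fold and triangles for lower bounds. Egln3, Ankrd37 and Adm lie to the right of the 2-fold line in both cell types, and the later steps of glycolysis lie between -1.34 and -0.30 in macrophages. The value of -1.34 is that of Eno1 and depended on the probe.

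Between osteoclasts and macrophages, 4 members were at least 2-fold lower in osteoclasts of both genotypes and 0 were higher in both. They were Slc2a3, Hk3, Pfkfb4 and P4ha2. The share of all genes past 2-fold in both genotypes is not given here, and the shares below are for each genotype alone. In LysM-St18flox, 3 of 40 members were higher in osteoclasts and 4 lower, and across all genes 23.2% passed, 10.9% higher and 12.2% lower. In the wild type, 0 of 39 were higher and 5 lower, and across all genes 13% passed, 5.7% higher and 7.32% lower. The members were thus at or below the share over all genes in either genotype, apart from the lower calls of the wild type.

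Slc2a3 encodes GLUT3, a high-affinity glucose transporter. It was at -1.64 in LysM-St18flox osteoclasts and 0.27 in LysM-St18flox macrophages, 3.77-fold lower, and at -0.89 in wild-type osteoclasts and 0.44 in wild-type macrophages, 2.5-fold lower. Slc2a1, the gene of the widely expressed transporter GLUT1, was at 4.24 in LysM-St18flox osteoclasts and 3.76 in LysM-St18flox macrophages, and at 4.13 in wild-type osteoclasts and 3.97 in wild-type macrophages. The 2 transporters thus differed in direction. A second Slc2a3 probe was not well above background on any array, and with the median over both probes the difference in LysM-St18flox was -0.93.

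Hk3, a hexokinase typical of myeloid cells, was at 5.32 in LysM-St18flox osteoclasts and 6.42 in LysM-St18flox macrophages, 2.14-fold lower, and at 5.31 in wild-type osteoclasts and 6.64 in wild-type macrophages, 2.5-fold lower. A second probe gave -1.30 in LysM-St18flox and -1.29 in wild-type cells, near the -1.10 and -1.32 of the first. Hk3 was thus lower in osteoclasts with either probe, though by -0.93 in LysM-St18flox when arrays were scaled on their median. Hk2, the inducible hexokinase, differed by -0.08 in LysM-St18flox and -0.54 in wild-type cells.

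Pfkfb4, a kinase and phosphatase that sets the level of fructose 2,6-bisphosphate and so the activity of phosphofructokinase, was at 1.53 in LysM-St18flox osteoclasts and 3.32 in LysM-St18flox macrophages, 3.46-fold lower. In the wild type it was at 1.68 in osteoclasts and 2.99 in macrophages, 2.48-fold lower. A second Pfkfb4 probe was not well above background on any array, and with the median over both probes the difference was -1.02 in LysM-St18flox and -1.16 in wild-type cells. Pfkfb3, its relative with the strongest kinase activity, was also lower in osteoclasts, at -0.66 in LysM-St18flox and -0.50 in wild-type cells, within 2-fold. P4ha2 had the lowest difference of the members. It was at -0.57 in LysM-St18flox osteoclasts and 1.46 in LysM-St18flox macrophages, 4.07-fold lower, and at -0.18 in wild-type osteoclasts and 1.88 in wild-type macrophages, 4.19-fold lower. For all 4 of these genes both osteoclast arrays lay below both macrophage arrays.

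The sums of macrophage markers, above, and of neutrophil markers moved in the same direction. Of the 8 macrophage markers, 5 were at least 2-fold lower in LysM-St18flox osteoclasts than macrophages and 3 in the wild type. In either genotype 0 were higher. Mrc1 was at -4.69 in LysM-St18flox and -3.20 in wild-type cells, Fcgr1 at -4.39 and -4.30, and Mertk at -4.22 and -2.30. Cd68 was at -0.06 and -0.45, and Itgam at -0.45 and 0.10. Neutrophil markers summed to 9.82 in LysM-St18flox osteoclasts and 40.4 in LysM-St18flox macrophages, and to 14.2 in wild-type osteoclasts and 33.1 in wild-type macrophages. Mmp8, the brightest of them in macrophages, was at -3.46 in LysM-St18flox and -2.08 in wild-type cells. Of the 8 measured, 5 were at least 2-fold lower in LysM-St18flox osteoclasts, but only 1, Mmp8, in wild-type osteoclasts. Over all genes 12.2% and 7.32% were lower. B cell markers summed to 0.187 in LysM-St18flox osteoclasts and 1.48 in LysM-St18flox macrophages, and to 0.344 in wild-type osteoclasts and 1.14 in wild-type macrophages. The megakaryocyte sum, which rests on Pf4, was 14.6 in LysM-St18flox osteoclasts and 209 in LysM-St18flox macrophages, and 23.9 in wild-type osteoclasts against 193 in wild-type macrophages. The part of these markers in the results was not tested.

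Other members passed 2-fold in 1 genotype. Against macrophages of the same genotype, Epas1 was 1.58-fold lower in LysM-St18flox osteoclasts (-0.66) and 3.24-fold lower in wild-type osteoclasts (-1.69). Pdk1, a kinase that keeps pyruvate out of the mitochondrial dehydrogenase, was at 4.49 in LysM-St18flox osteoclasts and 3.43 in LysM-St18flox macrophages, 2.09-fold higher, and at 4.02 in wild-type osteoclasts and 3.79 in wild-type macrophages. The 3 further Pdk1 probes gave 1.15, 0.64 and -0.32 in LysM-St18flox, so its direction was not shared by all probes. Eno1 differed by 1.16 in LysM-St18flox and 0.41 in wild-type cells, and its brighter probe gave 0.45 in LysM-St18flox. Within LysM-St18flox, Adm was 2.92-fold higher in osteoclasts than in macrophages, and its wild-type signals were below the background limit.

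Most of the pathway differed little between the cell types. In LysM-St18flox, all 5 later-step enzymes were above 0 in osteoclasts, from 0.19 for Gapdh to 1.16 for Eno1, as were 5 of the 7 first-step genes. In the wild type, all 7 first-step genes were below 0 with their brightest probe, from -0.50 to -0.02, but further probes of Tpi1 (0.20 and 0.23) and Pfkp (0.07) were above 0, and the later steps lay between -0.26 and 0.41. Pyruvate and lactate genes followed the same order, with Ldha at 0.41 in LysM-St18flox and 0.04 in wild-type cells. Slc16a3, the lactate exporter MCT4, was at 0.30 in LysM-St18flox and -0.01 in wild-type cells. Of the 23 further probes of members, 22 had the direction of the brightest probe in LysM-St18flox and 15 in wild-type cells. The median of the glycolysis class was 0.25 in LysM-St18flox and -0.18 in wild-type cells, beside -0.02 and 0.00 over all genes.

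The other HIF targets had a median of -0.04 in LysM-St18flox and -0.16 in wild-type cells, and the LysM-St18flox median was 0.13 when arrays were scaled on their median. The glycolysis median lay 0.30 above that of the other targets in LysM-St18flox. In the wild type it lay at -0.02 relative to them, which turned to 0.09 or 0.06 with another background correction or with the median over probes. Ndrg1 was lower in osteoclasts, at -0.97 in LysM-St18flox and -0.69 in wild-type cells. Higd1a was higher, at 0.90 and 0.36. The class thus held members of either direction.

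**Figure D4:**
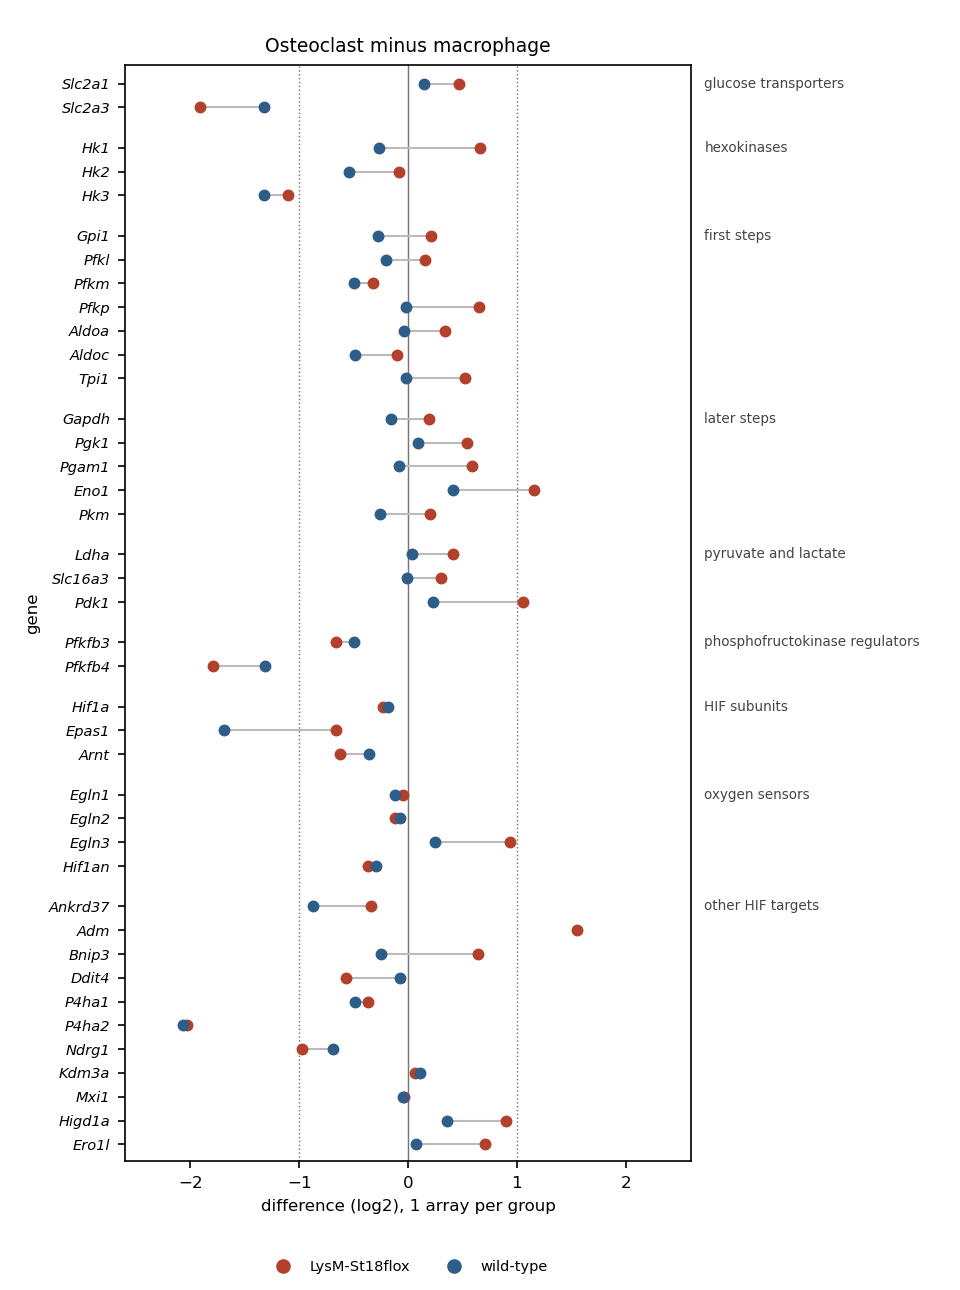
Osteoclast minus macrophage difference (log2) for each of the 40 members by role, in LysM-St18flox (red) and wild-type (blue) cells, with dotted lines at 2-fold. Slc2a3, Hk3, Pfkfb4 and P4ha2 lie to the left of the 2-fold line in both genotypes. For 19 of the 22 glycolysis genes the LysM-St18flox point is to the right of the wild-type point. Over all genes, not drawn, the LysM-St18flox difference was the higher for 7412 of 13668.

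The difference between osteoclasts and macrophages was itself compared between genotypes, for the 39 members well above background on all 4 arrays. It was higher in LysM-St18flox than in the wild type for 19 of the 22 glycolysis genes, and for 7412 of 13668 of all genes. The glycolysis median was 0.38, beside 0.04 over all genes. The 3 other glycolysis genes were Slc2a3 (-0.59), Pfkfb4 (-0.48) and Pfkfb3 (-0.16). The other HIF targets had a median of 0.08. By size, 1 member passed 2-fold, Epas1 at 1.04, while 7.9% of all genes did (3.2% higher, 4.7% lower). Hk1 followed at 0.94 and Bnip3 at 0.89. These comparisons use the same 4 arrays as those above and are not separate evidence.

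**Figure D5:**
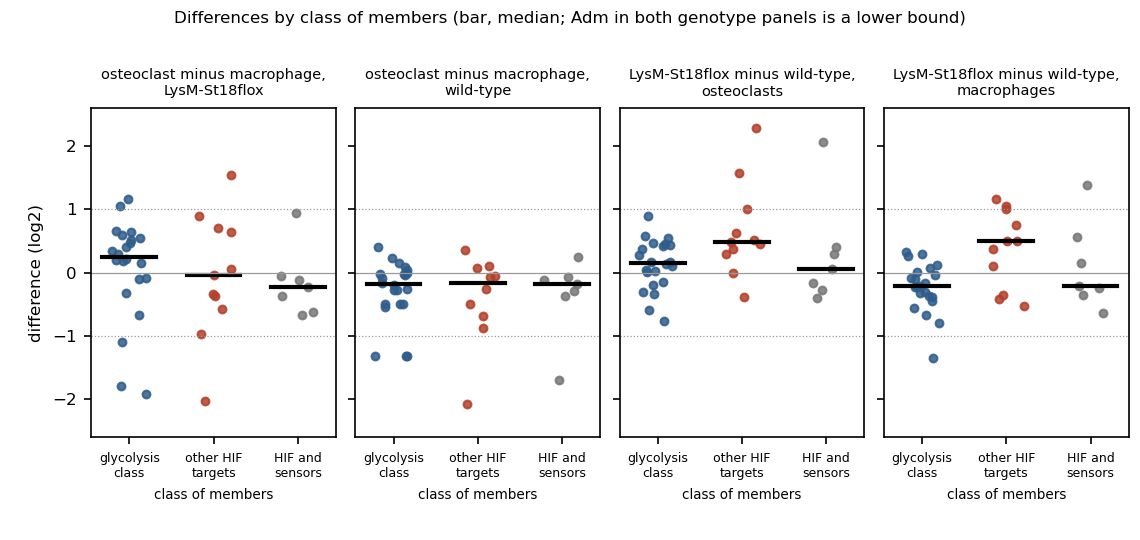
Differences (log2) of the members by class in the 4 comparisons, with 1 point per gene, a black bar at the class median and dotted lines at 2-fold; HIF and sensors are the 3 subunits and 4 oxygen sensors. In the genotype panels the other HIF targets have medians of 0.48 in osteoclasts and 0.50 in macrophages, and the glycolysis class 0.16 and -0.21.

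Lists of other genes of the pathway were counted in the same way. Of 41 other genes of glycolysis and neighbouring reactions, 12 of 34 measured were at least 2-fold higher and 2 lower in osteoclasts than in macrophages of LysM-St18flox, and 4 of 32 were higher and 0 lower in those of the wild type. Over all genes the shares were 10.9% higher and 12.2% lower in LysM-St18flox, and 5.7% and 7.32% in the wild type. Those past 2-fold in both were isoforms and partners of the members. Ldhb, the lactate dehydrogenase subunit favoured in oxidative tissues, was at 4.87 in LysM-St18flox osteoclasts and 1.33 in LysM-St18flox macrophages, and at 2.63 in wild-type osteoclasts and 1.19 in wild-type macrophages. Pfkfb2, another phosphofructokinase regulator, was higher in osteoclasts by 2.55 in LysM-St18flox and 1.54 in wild-type cells, opposite to Pfkfb3 and Pfkfb4. Slc16a1, the lactate transporter MCT1, was higher by 2.03 and 1.20. Hkdc1, a hexokinase-like gene, was not above background in macrophages and was higher in osteoclasts by at least 3.41 in LysM-St18flox and at least 1.68 in the wild type.

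Between genotypes, 8 of 32 genes of this list were higher and 0 lower in LysM-St18flox osteoclasts, and 1 of 33 was higher and 0 lower in LysM-St18flox macrophages. Over all genes the shares were 3.81% higher and 3.94% lower in osteoclasts, and 3.3% and 2.98% in macrophages. Pdk2, a relative of Pdk1, passed in both, at 1.38 in osteoclasts and 1.04 in macrophages. Its levels were 0.64 in LysM-St18flox osteoclasts and -0.74 in wild-type osteoclasts. They were 0.14 in LysM-St18flox macrophages and -0.91 in wild-type macrophages.

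Of 35 further HIF targets, 6 of 30 measured were at least 2-fold higher and 2 lower in osteoclasts of LysM-St18flox than of wild-type mice, and 2 of 29 were higher and 2 lower in macrophages, beside 3.81% and 3.94% of all genes in osteoclasts and 3.3% and 2.98% in macrophages. Those past 2-fold in both cell types went different ways. Zfp395, a zinc finger protein gene, was higher by 1.14 in osteoclasts and 1.16 in macrophages. Hmox1, the haem oxygenase gene, which responds to oxidative stress and haem as well as to hypoxia, was at 4.40 in LysM-St18flox osteoclasts and 5.98 in wild-type osteoclasts, and at 6.32 in LysM-St18flox macrophages and 7.33 in wild-type macrophages, lower in both. The higher genotype levels of Egln3, Ankrd37 and Adm were therefore not shared by all HIF targets on the arrays.

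Between cell types, 9 of 30 further targets were higher and 7 lower in LysM-St18flox osteoclasts, and 4 of 29 were higher and 6 lower in wild-type osteoclasts, beside 10.9% and 12.2% of all genes in LysM-St18flox and 5.7% and 7.32% in the wild type. Lox, which cross-links collagen, was higher by at least 6.20 in LysM-St18flox and at least 4.24 in the wild type. Pgf, placental growth factor, was higher by 4.60 and 4.61, the clock-related repressor gene Bhlhe40 by 4.19 and 2.50, and the transferrin receptor gene Tfrc by 2.34 and 1.48. The collagen lysyl hydroxylase genes were lower, Plod1 at -1.16 in LysM-St18flox and -1.34 in wild-type cells, and Plod2 at -1.29 and -1.78, in the same direction as P4ha2. Also lower were Bhlhe41 at -2.78 and -1.11, Ccng2, a cyclin G gene, at -1.66 and -1.10, Zfp395 at -1.14 and -1.13, and Hmox1 at -1.93 and -1.35.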

How the data were processed

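RNA of 4 cultures was measured on 1 one-colour Agilent array each, all on 1 slide, and groups follow the labels' cell type and genotype. Per the submitters' processing notes, scans were read with Agilent Feature Extraction, version 11.0.1.1. The scanner files deposited by the authors hold, per the file headers, a processed intensity per spot, with background subtracted and no scaling between arrays. The authors also deposited log2 values for 30909 probes, of which 30893 matched probes used here. Its making, scale factor and centring were not given in the sources used here. It holds levels, each column has a median of 9.39, and each correlates with its array at 0.9998 or more.

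From the intensities, log2 of the signal was averaged over the spots of each of 56605 probes, leaving out 80 to 126 uneven or outlying spots per array, and the 75th percentile of the array was subtracted. Probes were named through RefSeq accessions and a gene table of GRCm38.p6, used for names only since the file headers name build mm9, and 32989 probes were named, for 22907 genes. Ero1l is Ero1a in RefSeq. A gene was represented by its brightest probe with a usable spot on all 4 arrays, and 21 members had 1 probe. A gene entered a comparison if well above background on at least 1 of its 2 arrays. Where it was so on only 1, the difference is a bound, taken from the higher of the dim signal and the lowest one that counts as well above background. No test was made, since no group had a second array, and precision is limited by the number of arrays. The members, classes, lists and rules were chosen with earlier results of these data known. Named with values on every array are members past 2-fold in any comparison, HIF subunits and sensors; other pathway genes are named where past 2-fold in both cell-type or both genotype comparisons. Promoter sequences come from RefSeq, GRCm38.p6, and Epas1, Ndrg1 and Slc2a3 are not analysed there.

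Alternatives were scaling on the median, quantile normalization, normexp background correction on median signals with an offset of 50 (limma 3.58.1), the authors' deposited table, the median over probes, no filter on dim probes, genes above background on all arrays, a 1.5-fold criterion, and keeping uneven spots. The normexp and uneven-spot settings were chosen after seeing the data. Scripts ran in Python 3.11.15 and R 4.3.3 and were tested on simulated data.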

Additional observations from a re-analysis of the deposited data

Results flagged for a closer look

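For 6 members the same comparison went in opposite directions in the 2 genotypes or the 2 cell types, by at least 0.25 on the log2 scale each way. With 1 array per group these differences were not tested. Between osteoclasts and macrophages, Hk1 was at 0.66 in LysM-St18flox and -0.27 in wild-type cells, 0.93 apart, but a second, dim Hk1 probe gave 0.96 and 0.09. Bnip3 was at 0.64 in LysM-St18flox and -0.25 in wild-type cells, 0.89 apart. Between LysM-St18flox and wild-type cells, Epas1 was at 0.41 in osteoclasts and -0.63 in macrophages, 1.04 apart. Pdk1 was at 0.47 in osteoclasts and -0.36 in macrophages, 0.83 apart, but none of its 3 further probes reached 0.25 in opposite directions, at 1.04 and -0.06, 0.52 and 0.35, and -0.09 and 0.11. Pgam1 was at 0.28 in osteoclasts and -0.39 in macrophages, 0.67 apart, and Ero1l at 0.29 and -0.35, 0.64 apart.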

How the results depend on the processing

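Of 21 single calls of members past 2-fold, 14 stayed past it under every alternative that gave a value, and none of 161 pairs of call and alternative changed sign. Many of these pairs could not change. For a gene above background on all arrays, both other settings of the background filter give the same value. The median over probes does so for a gene with no further usable probe. A bound that crossed 0 was given no value, so the Adm calls between genotypes could not be counted as reversed. The Adm call in macrophages had a value under 5 alternatives, against 8 for Ankrd37, and had none by normexp. The counts therefore overstate how far the calls were tried. The Egln3, Ankrd37, Adm and P4ha2 calls were among the 14. Calls lost were Bnip3 in osteoclasts between genotypes (0.96 by quantile normalization), Ddit4 in macrophages (0.89 by normexp), Eno1 in macrophages (-0.01 in the authors' deposited table, -0.33 with uneven spots kept), and in LysM-St18flox cell types Eno1 (0.24 in the authors' deposited table), Pdk1 (0.50 with the median over probes), Hk3 (-0.93 with median scaling) and Slc2a3 (-0.93 with the median over probes). Calls gained were Egln3 (1.11) and Higd1a (1.07) between LysM-St18flox cell types and Hk1 between genotypes in osteoclasts (1.15), with median scaling, and Ndrg1 between LysM-St18flox cell types (-1.11 by quantile normalization and in the authors' deposited table) and between genotypes in macrophages (1.06 by normexp). Median scaling moved the median of all genes to 0.15 for the LysM-St18flox cell types, 0.24 for the genotypes in osteoclasts and 0.28 for the difference of differences. The share of calls that were higher moved with it, to 59.1% against 47.2%, 75.9% against 49.1% and 68.8% against 40.6%. For the genotypes in osteoclasts that share was 62.2% by quantile normalization and 62.1% in the authors' deposited table, and for the difference of differences 53.1% by normexp.

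The count of members past 2-fold in the difference of differences was 4 with median scaling, and 2 by normexp and with no filter. Over all genes, 807 of 13668 were higher and 366 lower with median scaling, and 372 of 13664 and 328 by normexp. With no filter, 1319 of 22899 were higher and 2025 lower. In the authors' deposited table, 3 members passed between genotypes in macrophages and 2 in osteoclasts. Of all 13676 genes there, 413 were higher and 296 lower in macrophages, and 433 and 264 in osteoclasts. At 1.5-fold, 18 members passed between LysM-St18flox cell types, 9 between genotypes in macrophages, 8 in osteoclasts and 10 in the difference of differences. Over all genes at 1.5-fold, 3164 of 15573 were higher and 3449 lower between LysM-St18flox cell types. Between genotypes, 1525 of 15158 were higher and 1699 lower in macrophages, and 1514 of 14611 and 1761 in osteoclasts. For the difference of differences, 1313 of 13668 were higher and 1636 lower. The glycolysis median minus the other-target median turned positive in the wild-type cell types by normexp (0.09) and over probes (0.06), and was -0.11 with no filter. Between LysM-St18flox cell types it was 0.25 by quantile normalization, 0.38 in the authors' deposited table, 0.40 over probes and 0.44 for genes above background on all arrays. Between genotypes in macrophages it was -0.55, -0.46, -0.63 and -0.65 in that order, and -0.42 by normexp. In osteoclasts it was -0.18 by quantile normalization and -0.11 in the authors' deposited table. In the difference of differences it was 0.20 by quantile normalization, 0.19 in the authors' deposited table, 0.42 over probes and 0.09 by normexp. The cause of these shifts was not tested.

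No paired analysis was possible because each group had 1 array, which also left no array to leave out. Adm differences between genotypes are bounds.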

Other observations

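Pyruvate carrier and dehydrogenase genes of the glycolysis list, gathered after their values were seen, differed between genotypes in osteoclasts to unlike extents, where 3.81% of all genes were at least 2-fold higher. Mpc2, a subunit of the mitochondrial pyruvate carrier, was at 5.09 in LysM-St18flox osteoclasts and 3.96 in wild-type osteoclasts, while the other subunit gene, Mpc1, differed by 0.05. Of the dehydrogenase genes, Dlat differed by 1.01, Pdha1 by 0.81 and Pdhb by 0.54. Of its kinases, Pdk2 differed by 1.38 and Pdk3 by 1.08, and Pdk4 was not well above background. Of its phosphatases, Pdp1 differed by 0.01 and Pdp2 by 0.16.

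Among the further HIF targets, Cxcr4, the receptor of the chemokine CXCL12, is also named after its values were seen. It was at 0.66 in LysM-St18flox macrophages and -1.05 in wild-type macrophages, and at -1.17 in LysM-St18flox osteoclasts and -0.56 in wild-type osteoclasts. No test was possible for any of these values.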
